A study of Homo sapiens with 4 samples.

Results

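The genes described here encode 10 subunits of Polycomb repressive complex 1 (PRC1), chosen by name from the 33634 genes with at least 1 count: RING1, RNF2, BMI1, PCGF1, PCGF3, PCGF6, CBX2, CBX7, PHC1 and RYBP. All 10 had counts in each library, and 6 of them (RNF2, PCGF3, PCGF6, CBX2, PHC1 and RYBP) averaged at least 10 reads per 1000000 counts of the library (RPM), the minimum set for comparing libraries. RNA was captured with a poly-T primer from formaldehyde-fixed nuclei of H9 cells, an established line of human primed pluripotent stem cells, grown in Essential 8 medium on Geltrex. There were 4 libraries, 1 for each condition: Post, RNA and DNA; Pre, RNA and DNA; Post, RNA only; and Pre, RNA only. The label Post means that reverse transcription (RT) followed tagmentation, the cutting and tagging of chromatin by antibody-bound Tn5 transposase. The label Pre means that RT came first. In RNA and DNA libraries the marks H3K27me3 and H3K27ac were profiled from the same nuclei, and no source used here states whether nuclei of the RNA only libraries were tagmented with antibodies. In such bulk libraries the number of cells that express a gene and its RNA per cell cannot be told apart. With 1 library a condition, no difference below has a replicate check, and every interval is a 95% interval for counting error only.

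PRC1 is a chromatin repressor whose catalytic core, a RING1 or RNF2 protein paired with 1 PCGF protein, attaches ubiquitin to histone H2A (H2AK119ub). The PCGF partner sets the type of complex. Canonical PRC1 holds BMI1 or PCGF2 with a CBX protein, which binds H3K27me3 made by Polycomb repressive complex 2 (PRC2), and a PHC protein, which polymerises and compacts chromatin. Variant PRC1 holds RYBP or its paralogue YAF2 in place of the CBX protein and can be built on any PCGF protein. In pluripotent cells these complexes sit at the promoters of developmental regulators that are silent there.

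The libraries held 10089552 counts (Post, RNA and DNA), 8960724 counts (Pre, RNA and DNA), 6368721 counts (Post, RNA only) and 9379073 counts (Pre, RNA only). Post, RNA only stood apart: 34.8% of its counts fell on 6 clone-named genes (FP236383 and FP671120), against 10.7 to 15.8% in the other 3 libraries. RPM values of most genes were lower in that library, and the comparisons below are given relative to the median gene. Of 10 pluripotency markers, 10 were at 10 RPM or more in each library, with a summed level of 2089 to 2946 RPM. The 14 markers of differentiated cells summed to 14.4 to 23.4 RPM. COL1A1 had the most counts of these, at 7.38 to 10.8 RPM, and 3 or 4 of the 14, among them SOX17 or TBXT, were at 0 in each library.

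The promoter sequences of PHC1 and PCGF1 show what the counts per gene can and cannot separate. PHC1, the member with the highest level per kilobase, has 2 annotated promoters of opposite base composition less than 1 kb apart, and a count per gene does not say which start site made the RNA. PCGF1, the member with the lowest count, is shown for contrast because it alone among the members held matches to 2 of the 6 motifs searched. The sequences are from RefSeq (GRCh38.p14), run 5′ to 3′ on the gene's strand, and hold 250 bases before the start and 50 from it; capitals mark motif matches.
PHC1 promoter 1, chr12:8913593-8913892, plus strand, TATA in capitals: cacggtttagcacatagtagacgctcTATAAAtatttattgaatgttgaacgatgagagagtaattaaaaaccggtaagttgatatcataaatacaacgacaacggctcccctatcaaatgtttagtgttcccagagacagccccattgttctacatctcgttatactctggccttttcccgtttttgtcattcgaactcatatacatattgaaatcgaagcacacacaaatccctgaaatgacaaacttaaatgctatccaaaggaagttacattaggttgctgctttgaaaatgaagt
PHC1 promoter 2, chr12:8914259-8914558, plus strand, no motif matched: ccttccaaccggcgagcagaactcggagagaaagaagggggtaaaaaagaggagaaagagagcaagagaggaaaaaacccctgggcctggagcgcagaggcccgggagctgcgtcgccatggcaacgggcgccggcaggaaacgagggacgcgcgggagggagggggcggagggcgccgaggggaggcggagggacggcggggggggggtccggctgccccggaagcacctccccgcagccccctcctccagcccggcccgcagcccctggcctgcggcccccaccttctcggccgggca
PCGF1 promoter, chr2:74507646-74507945, minus strand, ETS and then YY1 in capitals: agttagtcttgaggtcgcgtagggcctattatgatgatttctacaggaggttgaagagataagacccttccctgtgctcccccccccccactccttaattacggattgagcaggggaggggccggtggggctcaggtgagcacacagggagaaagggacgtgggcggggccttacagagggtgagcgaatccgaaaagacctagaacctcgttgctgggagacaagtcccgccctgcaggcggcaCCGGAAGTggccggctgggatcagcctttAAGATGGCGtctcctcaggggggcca
The first PHC1 promoter was 37% G and C with 10 CpG dinucleotides, and the second was 72.3% G and C with 28. The median over the promoters of 27305 genes was 58.3% G and C and 14 CpG dinucleotides. Promoters were matched by symbol for 9 of the 10 members, 11 promoters in all, and CBX2 had no match. PCGF1 (59.7%), PCGF6 (61.7%) and RYBP (62.7%) lay nearest to the median composition, and the promoters of RING1, RNF2, BMI1, PCGF3 and CBX7 were 73 to 91% G and C. The motifs, searched on both strands, were ETS (CCGGAAGT, in 4.44% of all genes' promoters), YY1 (AAGATGGCG, 1.85%), CRE (TGACGTCA, 1.98%), E-box (CACGTG, 7.43%) and E2F (TTTCCCGC, 1.66%), besides TATA. The TATA match (TATAAA, found in 12.0% of all promoters) in the first PHC1 promoter starts 224 bases before the start site, and the only other match, besides those of PCGF1, was an E-box in the first BMI1 promoter, 70 bases before it. These matches are a description of letters in a window.

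RING1 (chr6:33208500-33212722) encodes RING1A, a RING finger E3 ligase that makes H2AK119ub. It was measured at 6.05 RPM (Post, RNA and DNA), 8.93 RPM (Pre, RNA and DNA), 6.28 RPM (Post, RNA only) and 5.97 RPM (Pre, RNA only), from 61, 80, 40 and 56 counts in the same order. Pre, RNA and DNA was highest, and its interval (7.08 to 11.1 RPM) overlapped those of the other 3 libraries. RNF2 (chr1:185045526-185102603) encodes RING1B, the paralogue of RING1A. It was at 64.6 RPM (Post, RNA and DNA), 63.3 RPM (Pre, RNA and DNA), 42.6 RPM (Post, RNA only) and 64.4 RPM (Pre, RNA only), so that 3 libraries were alike and Post, RNA only was low. RNF2 held 91.4% of the counts of the pair (Post, RNA and DNA), 87.6% (Pre, RNA and DNA), 87.1% (Post, RNA only) and 91.5% (Pre, RNA only). Divided by the length of all annotated exons of a gene (1.81 kb for RING1 and 3.91 kb for RNF2), its share of the pair was 75.9 to 83.4%. RNF2 was thus the more abundant of the 2 in each library, by counts and per kilobase of exon. Per kilobase of gene body, introns included, the order was reversed, with RING1 at 1.41 to 2.11 RPM per kb and RNF2 at 0.746 to 1.13.

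The PCGF genes included both the well measured PCGF3 and PCGF6 and the scarce PCGF1 and BMI1. PCGF3 (chr4:705748-770089), which defines the variant complex PRC1.3, had 72.5 RPM (Post, RNA and DNA), 71.5 RPM (Pre, RNA and DNA), 42.1 RPM (Post, RNA only) and 78.2 RPM (Pre, RNA only). PCGF6 (chr10:103302796-103351144), which defines PRC1.6 together with MGA, L3MBTL2 and E2F6, had 32.2 RPM (Post, RNA and DNA), 43.9 RPM (Pre, RNA and DNA), 21.0 RPM (Post, RNA only) and 42.3 RPM (Pre, RNA only). PCGF6 was thus lower in RPM in both Post libraries than in either Pre library, and the intervals of the Post libraries did not reach those of the Pre libraries. The median gene was also lower in Post, with log2 ratios of −0.09 with RNA and DNA and −0.44 with RNA only. The share of all genes with the same pattern in RPM was not counted. PCGF1 (chr2:74505043-74507695), which defines PRC1.1 with KDM2B and BCOR, had 1.49 RPM (Post, RNA and DNA), 1.00 RPM (Pre, RNA and DNA), 1.26 RPM (Post, RNA only) and 1.49 RPM (Pre, RNA only). These rest on 15, 9, 8 and 14 counts. BMI1 (chr10:22321099-22331484), the PCGF protein of canonical PRC1 also called PCGF4, had 2.58 RPM (Post, RNA and DNA), 1.67 RPM (Pre, RNA and DNA), 1.57 RPM (Post, RNA only) and 2.13 RPM (Pre, RNA only), from 26, 15, 10 and 20 counts. BMI1 shares 8444 bases on the same strand with the read-through gene COMMD3-BMI1, and PCGF3 shares 9888 bases on the opposite strand with PCGF3-AS1, neither of which was analysed here, so the counts of BMI1 and PCGF3 may hold reads of these genes. The intervals of all 4 libraries overlapped for PCGF1 and for BMI1, so that no difference was detectable at this depth.

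Within the family per kilobase of exon, PCGF6 took 38.5% of the summed level (Post, RNA and DNA), 44.5% (Pre, RNA and DNA), 37.0% (Post, RNA only) and 42.6% (Pre, RNA only). PCGF3 took 37.9%, 31.7%, 32.4% and 34.4% in the same libraries. PCGF2, the paralogue of BMI1 in canonical PRC1, took 14.9 to 22.2%, against 1.16 to 2.11% for BMI1, so that PCGF2 held more of the family than BMI1 in each library. PCGF5, the paralogue of PCGF3, took 2.29 to 3.47%, and PCGF1 took 1.76 to 3.81%. By counts PCGF3 was ahead of PCGF6, with 48.7 to 55.2% of the family against 24.5 to 29.8%. Per kilobase of gene body PCGF3 was also ahead, at a mean of 1.03 RPM per kb against 0.721 for PCGF6.

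The genes for the chromodomain proteins, the H3K27me3 readers of canonical PRC1, were below RNF2 per kilobase of exon. CBX2 (chr17:79778148-79787983) had 28.6 RPM (Post, RNA and DNA), 30.4 RPM (Pre, RNA and DNA), 22.5 RPM (Post, RNA only) and 23.8 RPM (Pre, RNA only). Both RNA and DNA libraries were above both RNA only libraries, but the intervals overlapped except between Pre, RNA and DNA (26.9 to 34.2 RPM) and Post, RNA only (18.9 to 26.4 RPM). CBX7 (chr22:39120167-39152680) had 4.96 RPM (Post, RNA and DNA), 3.91 RPM (Pre, RNA and DNA), 3.93 RPM (Post, RNA only) and 5.65 RPM (Pre, RNA only), and the 4 intervals overlapped. Of the summed level of CBX2, CBX6, CBX7 and CBX8 per kilobase, CBX2 held 48.5 to 57.7% and CBX6 32.9 to 40.6%, while CBX7 held 5.05 to 8.76%. CBX6 had 24.6 RPM (Post, RNA and DNA), 33.5 RPM (Pre, RNA and DNA), 18.1 RPM (Post, RNA only) and 28.04 RPM (Pre, RNA only). Before division by length, CBX6 was thus above CBX2 in both Pre libraries and below it in both Post libraries. The intervals of CBX2 and CBX6 overlapped in each library. CBX8 was at 0.471 to 1.23 RPM.

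PHC1 (chr12:8913896-8941467), whose SAM domain lets the protein polymerise, was the highest member per kilobase of exon. It had 233 RPM (Post, RNA and DNA), 272 RPM (Pre, RNA and DNA), 202 RPM (Post, RNA only) and 267 RPM (Pre, RNA only). Both Post libraries were below both Pre libraries in RPM. So was the median gene in each pair of Post over Pre (log2 ratio −0.09 with RNA and DNA, −0.44 with RNA only). PHC1 held 83.1 to 85.0% of the summed level of PHC1, PHC2 and PHC3 per kilobase. The end of PHC1 overlaps M6PR, on the opposite strand, by 1107 bases, and whether counting used strand is not stated, so reads there cannot be assigned. M6PR had 61.8 RPM (Post, RNA and DNA), 94.7 RPM (Pre, RNA and DNA), 60.6 RPM (Post, RNA only) and 74.8 RPM (Pre, RNA only).

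RYBP (chr3:72371825-72446621), which binds RING1 or RNF2 in variant PRC1, had 103 RPM (Post, RNA and DNA), 113 RPM (Pre, RNA and DNA), 73.5 RPM (Post, RNA only) and 106 RPM (Pre, RNA only). Post, RNA only was again the low library. Per kilobase, RYBP held 94.04% (Post, RNA and DNA), 94.4% (Pre, RNA and DNA), 94.5% (Post, RNA only) and 96.0% (Pre, RNA only) of the summed level of RYBP and its paralogue YAF2. The share of RYBP thus varied by less than 3 percentage points while its RPM varied.

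**Figure D1:**
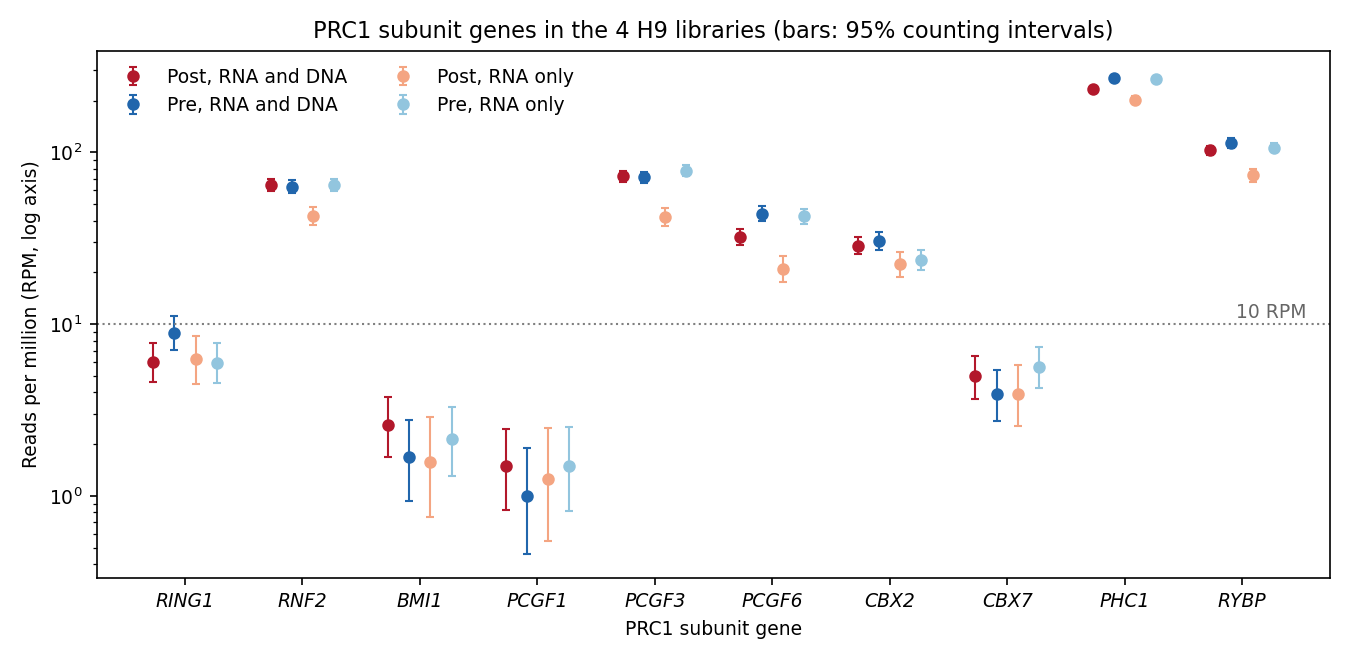
Level of each PRC1 subunit gene in the 4 libraries, in RPM on a log axis; points are libraries and bars are 95% counting intervals. RNF2, PCGF3, PCGF6, CBX2, PHC1 and RYBP lie above the dotted line at 10 RPM in each library, and Post, RNA only is the lowest library for each of these 6 genes.

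RNA was captured with a poly-T primer, and which length the counts scale with was not settled. Across 14941 protein-coding genes at 1 RPM or more, Spearman's rho between length and mean RPM was 0.44 for exons and 0.45 for gene body. Over the 10 members it was 0.53 for exons and 0.70 for gene body. Values per kilobase, the family shares above among them, therefore depend on the length chosen. The order of the members was taken per kilobase of exon. By the mean over libraries it was PHC1 (39.7 RPM per kb), RNF2 (15.03), RYBP (11.7), PCGF6 (11.6), PCGF3 (9.61), CBX2 (4.64), RING1 (3.75), PCGF1 (0.751), CBX7 (0.617) and BMI1 (0.452). RYBP was above PCGF6 in 2 of the 4 libraries, so these neighbours were not set apart, and each other pair of neighbours kept its order in 4 of 4. Counting intervals of PCGF1, CBX7 and BMI1 overlapped within each library, so the order of these 3 rests on few reads. By the mean over libraries, PHC1 stayed at the top and the group of PCGF1, CBX7 and BMI1 at the bottom. This held under each of the 3 lengths used (all exons, longest transcript, gene body). With the gene body, PCGF6 was above PCGF1 in 3 of the 4 libraries, so the bottom group was not set apart there. Per kilobase of gene body, introns included, CBX2 and RING1 moved up to the places after PHC1 (2.67 and 1.61 RPM per kb) and RNF2, RYBP, PCGF3 and PCGF6 followed at 0.721 to 1.32 RPM per kb.

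**Figure D2:**
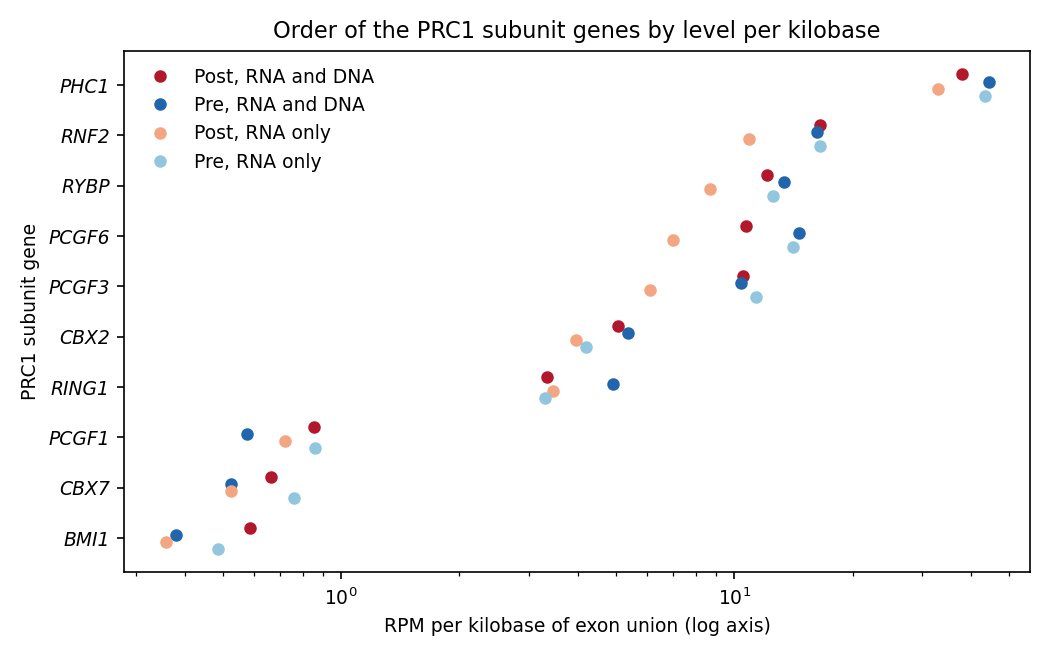
Level of each PRC1 subunit gene per kilobase of annotated exon, in RPM per kb on a log axis, with 1 point per library. PHC1 lies at 33.0 to 44.4 RPM per kb, and PCGF1, CBX7 and BMI1 lie under 1 RPM per kb.

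The first comparison addresses whether the order of RT and tagmentation changed the RNA profile. With RNA only, the pair rests on the labels Post and Pre, because tagmentation of those nuclei is not stated. Values are log2 ratios of RPM + 1, minus the median log2 ratio of the 11564 genes that averaged 10 RPM or more, called relative log2 ratios here. The medians subtracted were −0.09 for Post over Pre with RNA and DNA and −0.44 for Post over Pre with RNA only. None of the 6 members reached a 2-fold relative difference (0 of 6 in each pair), against 0.251% and 1.38% of all genes tested. The median of the 6 was −0.02 with RNA and DNA and −0.12 with RNA only, inside the quartiles of all genes tested (−0.16 to 0.14 and −0.19 to 0.21).

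PCGF6 had the lowest relative log2 ratio of the 6 in both pairs. The ratio was −0.34 (interval −0.55 to −0.13) with RNA and DNA and −0.54 (−0.82 to −0.26) with RNA only. The pairs share no library, and both intervals excluded the median gene. The share of all genes with intervals that excluded it on the same side in both pairs was not counted. PCGF3 had 0.11 (−0.04 to 0.27) with RNA and DNA and −0.44 (−0.64 to −0.24) with RNA only, on opposite sides of the median gene. CBX2 had 0.01 (−0.22 to 0.25) with RNA and DNA and 0.36 (0.06 to 0.66) with RNA only, the highest of the 6 in that pair. PHC1 had −0.13 (−0.21 to −0.05) with RNA and DNA and 0.04 (−0.06 to 0.13) with RNA only. The intervals of RNF2 and RYBP held the median gene in both pairs.

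In total the interval excluded the median gene for 2 of 6 members with RNA and DNA (37.3% of all genes tested) and for 3 of 6 with RNA only (40.3%). These counts are close to the background, and an interval for counting error leaves out the spread between libraries. The additive model of edgeR, which takes both factors together and leaves 1 residual degree of freedom, called 0 of the 6 members for the order of RT (0.0173% of all genes). In that model PCGF6 had a log2 fold change of −0.44 with an unadjusted p of 0.0341 and an adjusted p of 0.9996 by the quasi-likelihood test with Benjamini-Hochberg adjustment over 11564 genes. It was the only member of the 6 with an unadjusted p under 0.05, as were 357 of all genes, and DESeq2 gave it an unadjusted p of 0.142 and called 0 members.

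The second comparison addresses whether profiling DNA from the same nuclei changed the RNA profile. The medians subtracted were 0.38 for RNA and DNA over RNA only in Post and 0.03 in Pre. Again 0 of 6 members reached 2-fold in either pair, against 2.36% of all genes in Post and 0.0173% in Pre. PCGF3 had 0.39 (0.19 to 0.59) in Post and −0.15 (−0.30 to 0.00) in Pre. RNF2 had 0.21 (0.01 to 0.42) in Post and −0.05 (−0.22 to 0.12) in Pre. Both genes were thus relatively lowest in Post, RNA only.

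PHC1 had −0.18 (−0.27 to −0.08) in Post and 0.00 (−0.08 to 0.08) in Pre, the narrowest intervals of any member. CBX2 had −0.04 (−0.32 to 0.25) in Post and 0.31 (0.06 to 0.57) in Pre, where 97.7% of all genes tested lay lower. Of the 4 libraries it was relatively lowest in Pre, RNA only. The intervals of PCGF6 and RYBP held the median gene in both pairs. In total the interval excluded the median gene for 3 of 6 members in Post (41.0% of all genes tested) and 1 of 6 in Pre (14.6%). The median of the 6 was 0.16 in Post and 0.01 in Pre, and edgeR's additive model called 0 of 6 members for DNA profiling (0% of all genes), with 0 of the 6 and 67 of all genes at an unadjusted p under 0.05. DESeq2 also called 0 of 6.

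Among the 4 members under the minimum, each relative log2 ratio had a counting interval that held the median gene, except that of RING1 for RNA and DNA over RNA only in Pre. This was 0.48 (0.04 to 0.93), and in Post it was −0.43 (−0.94 to 0.10). The RING1 ratio in Pre rests on 80 and 56 counts. The share of all genes under the minimum with such an interval was not counted, and the median gene was set by genes above the minimum. The intervals of BMI1, PCGF1 and CBX7 were 1.06 to 1.53 wide on the log2 scale. The 1 RPM added before the log is near the levels of PCGF1 (1.00 to 1.49 RPM) and BMI1 (1.57 to 2.58 RPM). It narrows their intervals and pulls their ratios toward equal levels before the median is subtracted. By the overlapping intervals of their levels, no difference was detectable for these genes at this depth.

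**Figure D3:**
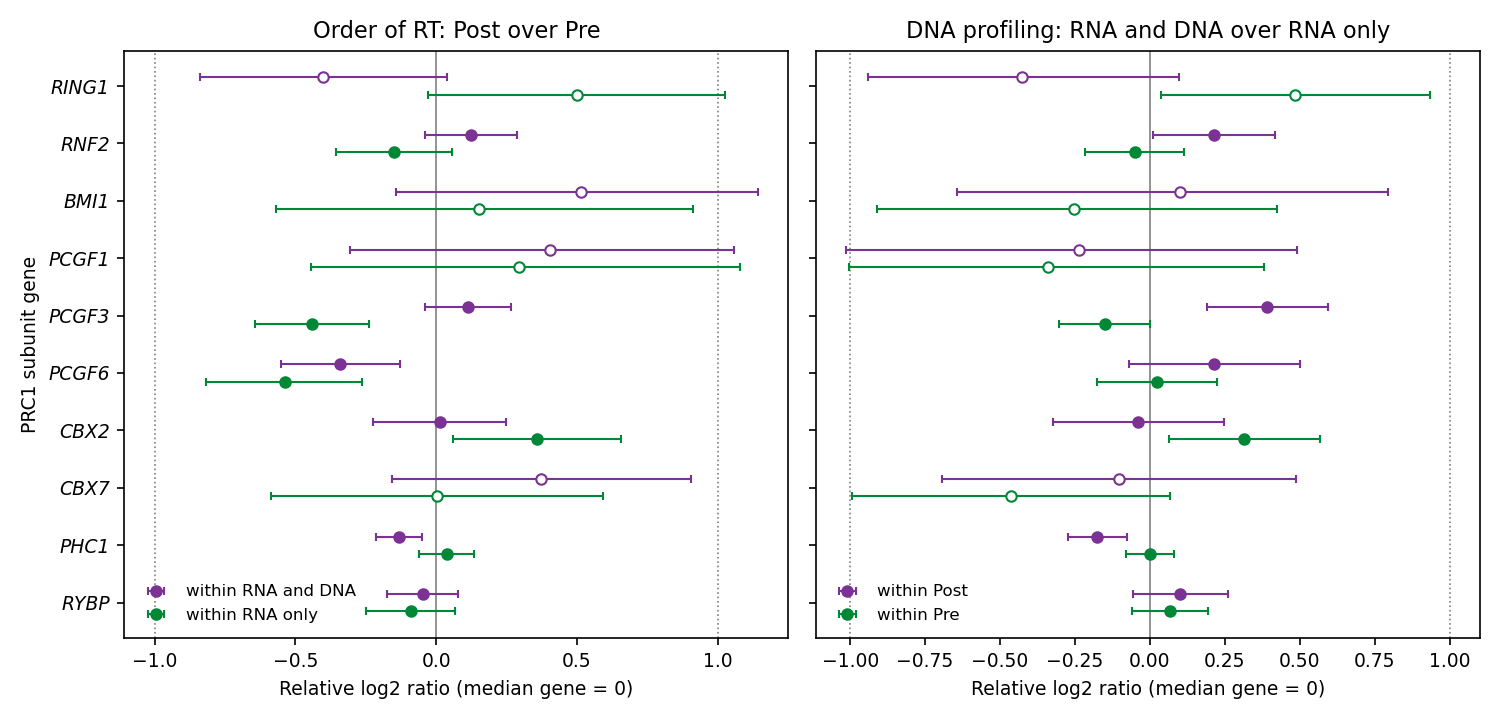
Relative log2 ratios of the PRC1 subunit genes for Post over Pre (left panel) and RNA and DNA over RNA only (right panel), with 95% counting intervals; filled points are genes averaging 10 RPM or more, open points are lower, and dotted lines mark 2-fold. PCGF6 lies left of 0 in both pairs of the left panel (−0.34 and −0.54), and PCGF3 lies on opposite sides of 0 in the 2 pairs of either panel.

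Over the 4 libraries, log2(RPM + 1) centred by gene and by library had a range of 0.59 for PCGF6, 0.47 for PCGF3, 0.35 for CBX2, 0.28 for RNF2, 0.19 for RYBP and 0.11 for PHC1. On this scale PCGF6 varied most. The genes whose pattern lay nearest to that of PCGF6 over the 4 libraries, by Euclidean distance of these centred values, were KRI1 (0.0108), PITPNA (0.0205) and ETV3 (0.0328). Altogether 34 of 11563 genes lay within a distance of 0.1, and 4 libraries give few patterns to choose from.

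The members differ in gene body length, which the choice of genes did not use, and across protein-coding genes this length moved with the ratios. The lengths of the 6 members tested were 9.84 kb for CBX2, 27.6 kb for PHC1, 48.3 kb for PCGF6, 57.1 kb for RNF2, 64.3 kb for PCGF3 and 74.8 kb for RYBP. For Post over Pre with RNA only, the median relative log2 ratio of protein-coding genes was 0.39 for 858 gene bodies under 10 kb, 0.09 for 2278 of 10 to 30 kb, −0.04 for 3738 of 30 to 100 kb and −0.09 for 2816 of at least 100 kb. CBX2 (0.36) and PHC1 (0.04) lay close to the medians of their length classes, as did RYBP (−0.09), whereas PCGF3 (−0.44) and PCGF6 (−0.54) lay below theirs. RNF2 (−0.15) was below its class median too, but its counting interval held that median. With RNA and DNA the medians ran the other way, at −0.29, −0.12, −0.02 and 0.10 in the same classes. There PHC1 (−0.13) and RYBP (−0.05) lay close to the medians of their classes, PCGF6 (−0.34) again lay below its own, and CBX2 (0.01) lay above its own. RNF2 (0.12) and PCGF3 (0.11) were above their class median too, but their counting intervals held it. Across the 9690 protein-coding genes tested, Spearman's rho between gene body length and the relative log2 ratio was 0.50 with RNA and DNA and −0.34 with RNA only, and for DNA profiling it was 0.55 in Post and −0.24 in Pre. These are descriptions across genes of the same libraries, the length classes were added after the values were seen, and the part of length in the members' ratios was not tested.

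**Figure D4:**
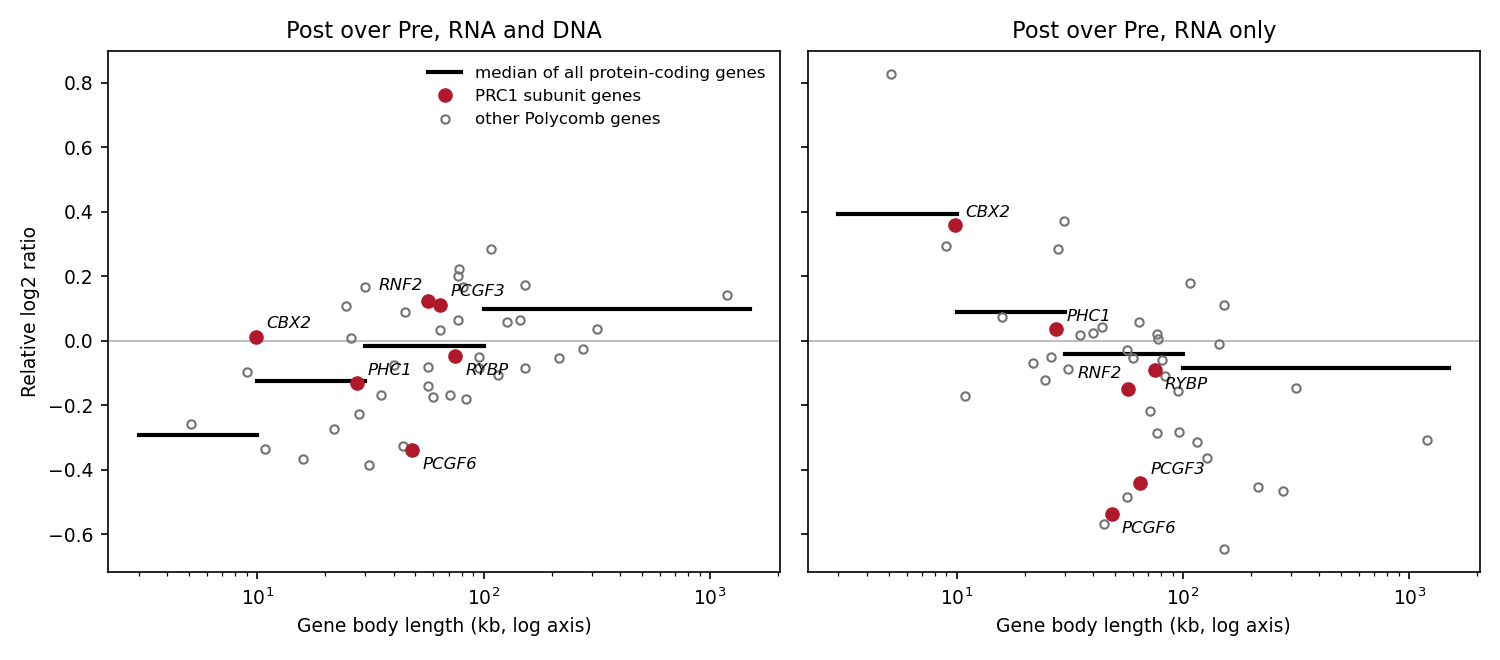
Relative log2 ratio of Post over Pre against gene body length in kb (log axis) with RNA and DNA (left panel) and RNA only (right panel); red points are the 6 PRC1 subunit genes, open points the other Polycomb genes averaging 10 RPM or more, and black lines the medians of all protein-coding genes under 10 kb, of 10 to 30 kb, of 30 to 100 kb and above. The medians run from −0.29 to 0.10 with length on the left and from 0.39 to −0.09 on the right, and PCGF6 lies below the line of its class in both panels.

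The other genes of the pathway were read from lists fixed by name. Of 9 further PRC1 core genes (PCGF2, PCGF5, CBX6, CBX8, PHC2, PHC3, SCMH1, SCML2 and YAF2), 6 passed the minimum and 0 of these reached 2-fold in any comparison. By the mean over libraries per kilobase of exon, SCMH1 was the highest of the 9 (29.2 RPM per kb) and CBX8 the lowest (0.190 RPM per kb). Of 17 partners of variant PRC1, 16 passed. AUTS2, a partner in PCGF3 and PCGF5 complexes, was the highest on the same scale at 18.1 RPM per kb, and FBRS, its relative, was the lowest at 0.582 RPM per kb.

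CSNK2B, the regulatory subunit of casein kinase 2, was the only partner called at 2-fold, in 1 of the 4 comparisons, in which 2.36% of all genes were called. It had 10.7 RPM (Post, RNA and DNA), 13.9 RPM (Pre, RNA and DNA), 17.7 RPM (Post, RNA only) and 13.3 RPM (Pre, RNA only). Its relative log2 ratio was −1.06 (−1.42 to −0.69) for RNA and DNA over RNA only in Post and 0.04 (−0.31 to 0.38) in Pre. Post, RNA only was its highest library, and its gene body, 5.12 kb, is the shortest among the Polycomb genes tested.

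Of 6 genes that act in removing H2AK119ub, 5 passed the minimum and 0 reached 2-fold, against 0.0173 to 2.36% of all genes in the 4 comparisons. At 1.5-fold BAP1, a deubiquitinase, passed, with −0.62 (−0.9998 to −0.24) for RNA and DNA over RNA only in Post. ASXL2 was the highest of the 6 (9.24 RPM per kb) and ASXL3 the lowest (0.194 RPM per kb). Of 11 PRC2 genes 9 passed and 0 reached 2-fold. JARID2, a PRC2 subunit that binds H2A ubiquitinated by PRC1, was the highest per kilobase (181 RPM per kb). It had 1198 RPM (Post, RNA and DNA), 1301 RPM (Pre, RNA and DNA), 705 RPM (Post, RNA only) and 1319 RPM (Pre, RNA only). PHF19 was the lowest at 1.25 RPM per kb. The median relative log2 ratios of these 4 lists lay between −0.16 and 0.07 in the 4 comparisons, around the median of all genes, which is 0 by construction.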

How the data were processed

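RNA counts came from 4 libraries of H9 cells, 1 per condition. The authors deposited counts per gene symbol, aligned to GRCh38 with duplicates removed and not normalized. The submitters' processing notes name STAR 2.7.11b, SAMtools, Bowtie2 2.5.3, Bowtie 1.3.1 and Trim Galore 0.6.10; the annotation and the strand setting are not given in the sources used here. The files hold 60 other barcode columns, matched to no sample label and left out.

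Counts were divided by library totals (6368721 to 10089552) to give RPM. Ratios were log2 of RPM + 1, centred on the median of genes that averaged 10 RPM or more, and a gene was called at 2-fold. Intervals are exact (Clopper-Pearson for ratios and shares, Poisson for levels) at 95% and cover counting error only. Lengths and places came from GENCODE release 44. edgeR's quasi-likelihood test was fitted in an additive model to the genes that averaged 10 RPM or more. DESeq2, and a fit to all genes without this filter, were alternatives. The steps were tested on simulated data. The text names all members, called, highest and lowest genes of each list, other genes of the members' families and 3 genes nearest in pattern to the member with the widest range. BAP1 and KDM2B are named outside this rule, chosen with their values known. One gene of the lists is not reported here. The members and lists were chosen with earlier results of these data known. Tools were matplotlib 3.10.9, scipy 1.17.1, pandas 2.3.3 and numpy 2.4.6 in Python 3.11.15, and DESeq2 1.42.0 and edgeR 4.0.16 in R 4.3.3.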

Additional observations from a re-analysis of the deposited data

Results flagged for a closer look

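PCGF3 had relative log2 ratios of opposite sign in the 2 pairs of each factor, with counting intervals that did not overlap. For Post over Pre, its relative log2 ratio with RNA and DNA (0.11) minus that with RNA only (−0.44) was 0.55. For RNA and DNA over RNA only, its relative log2 ratio in Post (0.39) minus that in Pre (−0.15) was 0.54. Apart from the medians subtracted, both differences are the same contrast of the same 4 libraries. Such opposite signs with intervals apart were common: of all 11564 genes tested, 21.2% showed them for the order of RT and 22.6% for DNA profiling, as did 1 of the 6 members in each. Whether the differences of PCGF3 exceed the spread between libraries was not tested because each condition is 1 library.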

How the results depend on the processing

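The count of members called stayed at 0 in each comparison under each other scaling, filter, pseudocount, gene set, fold (1.5-fold) and depth. Each setting was changed alone, so 1.5-fold was tried only with the main settings. PCGF6 came nearest to a call, in Post over Pre with RNA only. Its relative log2 ratio ran from −0.62 to −0.48 over the settings tried with centring, and it was −0.98 without centring. The −0.62, with a minimum of 1 RPM, would have passed 1.5-fold. At 1.5-fold 3.12% and 7.26% of all genes were called for Post over Pre (RNA and DNA, and RNA only), and 8.97% and 0.216% for RNA and DNA over RNA only (Post, and Pre). In the additive model 0 members were also called by DESeq2 (0.225% of all genes for the order of RT, 0.00865% for DNA profiling) and by edgeR without the filter (0.452% and 0.187%). Of the other Polycomb genes, BAP1, CSNK2B and KDM2B passed 1.5-fold in Post over Pre with RNA only or RNA and DNA over RNA only in Post. The median relative log2 ratio of the members moved by more than the median width to 1 side of the counting intervals only without centring, to −0.56 for Post over Pre with RNA only and 0.53 for RNA and DNA over RNA only in Post. With centring it still moved by over 1.5 times: for RNA and DNA over RNA only in Post from 0.16 to 0.07 with a minimum of 1 RPM (10 members) and 0.08 when thinned, for Post over Pre with RNA only from −0.12 to between −0.06 (1 RPM) and −0.20 (no filter), and in the remaining 2 comparisons, at −0.04 to 0.03, its sign turned. The order per kilobase kept 8 of 10 places with the longest transcript and 2 of 10 with the gene body, and all 10 with TMM sizes. The interval rule was tried after seeing the data under 7 alternatives: the 4 other scalings of library totals, a minimum of 50 RPM, thinning and protein-coding genes only. With a minimum of 50 RPM, which 4 members pass, CBX2 and PCGF6 were not tested and the interval of RNF2 held the median gene for RNA and DNA over RNA only in Post. Thinned to the smallest total, that of RNF2 held it there too, and in Pre that of CBX2 held it and that of PCGF3 did not. With protein-coding genes only, those of both PCGF3 and CBX2 excluded it in Pre. The sign of PHC1 for Post over Pre with RNA only ran from −0.04 to 0.09 over the scalings, filters, pseudocounts and depths tried with centring, and that of CBX2 with RNA and DNA from −0.03 to 0.02. For PCGF6 and the order of RT, the lowest adjusted p was 0.626, from edgeR without the filter. No paired analysis was possible because each group has 1 library, so that replicate numbers pair nothing; the additive model took the other factor as a term. Depth limits RING1, BMI1, PCGF1 and CBX7, which had 8 to 80 counts in a library.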
